A study of Drosophila melanogaster with 15 samples.

Results

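The 100 genes described here are the Drosophila genes listed under a bare CG number whose level stood highest in testis cells with the ligand Unpaired (Upd), relative to control cells (WT). They were taken from the normalized table in 3 steps. Of 17408 genes, 7242 were listed as CG followed by digits, 2309 of those had a mean of at least 20 in the 3 Upd libraries, and the 100 with the highest ratio of (mean Upd + 1) to (mean WT + 1) were kept. The Upd and WT values therefore chose these genes, so they are given below as a description and no comparison with Upd or WT was tested. The Ci, Chinmo and Chinmo_RNAi libraries played no part in the choice. All 100 genes code for protein in the BDGP6.54 annotation. The annotation still calls 70 of them by a CG number, while 30 now have another name, so for those 30 the word uncharacterised no longer holds.

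The libraries were made from polyadenylated RNA of somatic cells that had been sorted by green fluorescence from adult testes. Every group, WT included, carried tj-Gal4, a driver active in the cyst lineage, which drove both UAS-GFPnls, a nuclear GFP used for the sort, and any other UAS transgene. There were 3 libraries in each of 5 groups, each from 50 to 100 flies and 100 to 200 testes. Upd flies carried UAS-Upd and, as a further GFP transgene, UAS-GFP. Ci flies carried UAS-Ci5Ncm5 together with UAS-Ci5m30, forms of Cubitus interruptus, through which Hedgehog signals act on transcription. Chinmo flies carried UAS-5'UTR-chinmo-3'UTR, for the zinc-finger protein Chinmo, and also tub-gal80TS, which is absent from the WT genotype. Flies labelled Chinmo_RNAi carried the hairpin UAS-chinmoRNAi (HMS00036) against chinmo, along with UAS-dcr2. WT flies had UAS-GFPnls on both homologues and no other transgene. Flies were 10 days old in 4 groups and 2 or 3 days old under the label Chinmo_RNAi, so that age and UAS-dcr2 cannot be told apart from the hairpin. No label tells if the 3 libraries within a group stem from different cultures, and the p-values below therefore cover no more than the spread among these libraries.

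A CG number is the identifier that the fly genome project gave to a predicted gene. A gene that still has only that number has usually not been named from a mutant, a biochemical activity or a clear relative. Cyst stem cells sit beside the hub of the testis tip together with germline stem cells, and their daughters enclose the developing germ cells. The hub secretes Upd, which binds the receptor Domeless and activates the kinase Hopscotch and the transcription factor Stat92E. Forced Upd is known to fill the testis with cells that resemble both kinds of stem cell.

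Counts assigned to genes ran from 1143049 to 2943120 per library. The library Chinmo 3 stood apart, with 4983 genes seen, 29.4% of its counts on ribosomal RNA genes and 265 counts on the 100 genes, so levels and counts of the Chinmo group are also given without it below. The other 14 libraries had 8109 to 13229 genes. The chinmo transcript, to which the hairpin is directed, averaged 117 ± 48.3 CPM (CPM is the gene's count per unit of library size after TMM scaling, SD, n = 3) under the label Chinmo_RNAi and 71.9 ± 2.87 CPM in WT. It was thus not lower there, and the group is called here by its label. The cyst stem cell marker zfh1 averaged 456 CPM in Upd, 77.5 in Ci, 15.6 in Chinmo, 29.4 in the libraries labelled Chinmo_RNAi and 15.9 in WT. It is 1 of 13 markers on a list described further below. Their sum averaged 4587 CPM in Upd, 1546 in Ci, 1392 in Chinmo, 2049 under Chinmo_RNAi and 1189 in WT. Ci and Chinmo_RNAi thus stood in the opposite order by zfh1 and by the list.

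The ratio that ranked the 100 genes ran from 76.6 for CG4570 to 8.96 for CG12204. CG8468 (62.2), CG10186 (Hasp, 55.2), CG17801 (47.8) and CG9926 (40.5) followed CG4570. Just inside the last rank stood CG17018 (Marf1, 9.06) and CG4822 (9.05), and just outside it CG1737 (8.94), CG12942 (8.90) and CG9246 (8.89). The genes on the 2 sides of this limit thus had nearly equal ratios. At the minimum of 20 in Upd, CG34008 (20.2) and CG11403 (20.3) were kept, while CG14905 (19.7) and CG15628 (19.4) were left out.

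In Upd the 100 genes together took 5728 ± 283 CPM (5538 to 6053, SD, n = 3). They took 840 ± 170 CPM in Ci, 616 ± 155 in Chinmo, 606 ± 99.7 in the libraries labelled Chinmo_RNAi and 389 ± 141 in WT. The Upd and WT ends of this order were set by the choice of genes, and the ranges of Ci (651 to 982), Chinmo (440 to 735) and Chinmo_RNAi (503 to 702) overlapped. In bulk RNA, fewer cells of a type and less RNA per cell cannot be told apart, here or in the results that follow. Of the 440 CPM in Chinmo 3, 322 CPM came from 1 gene, CG12014 (Ids), and 118 CPM remained without it. The mean of Chinmo 1 and Chinmo 2 was 703 CPM.

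**Figure D1:**
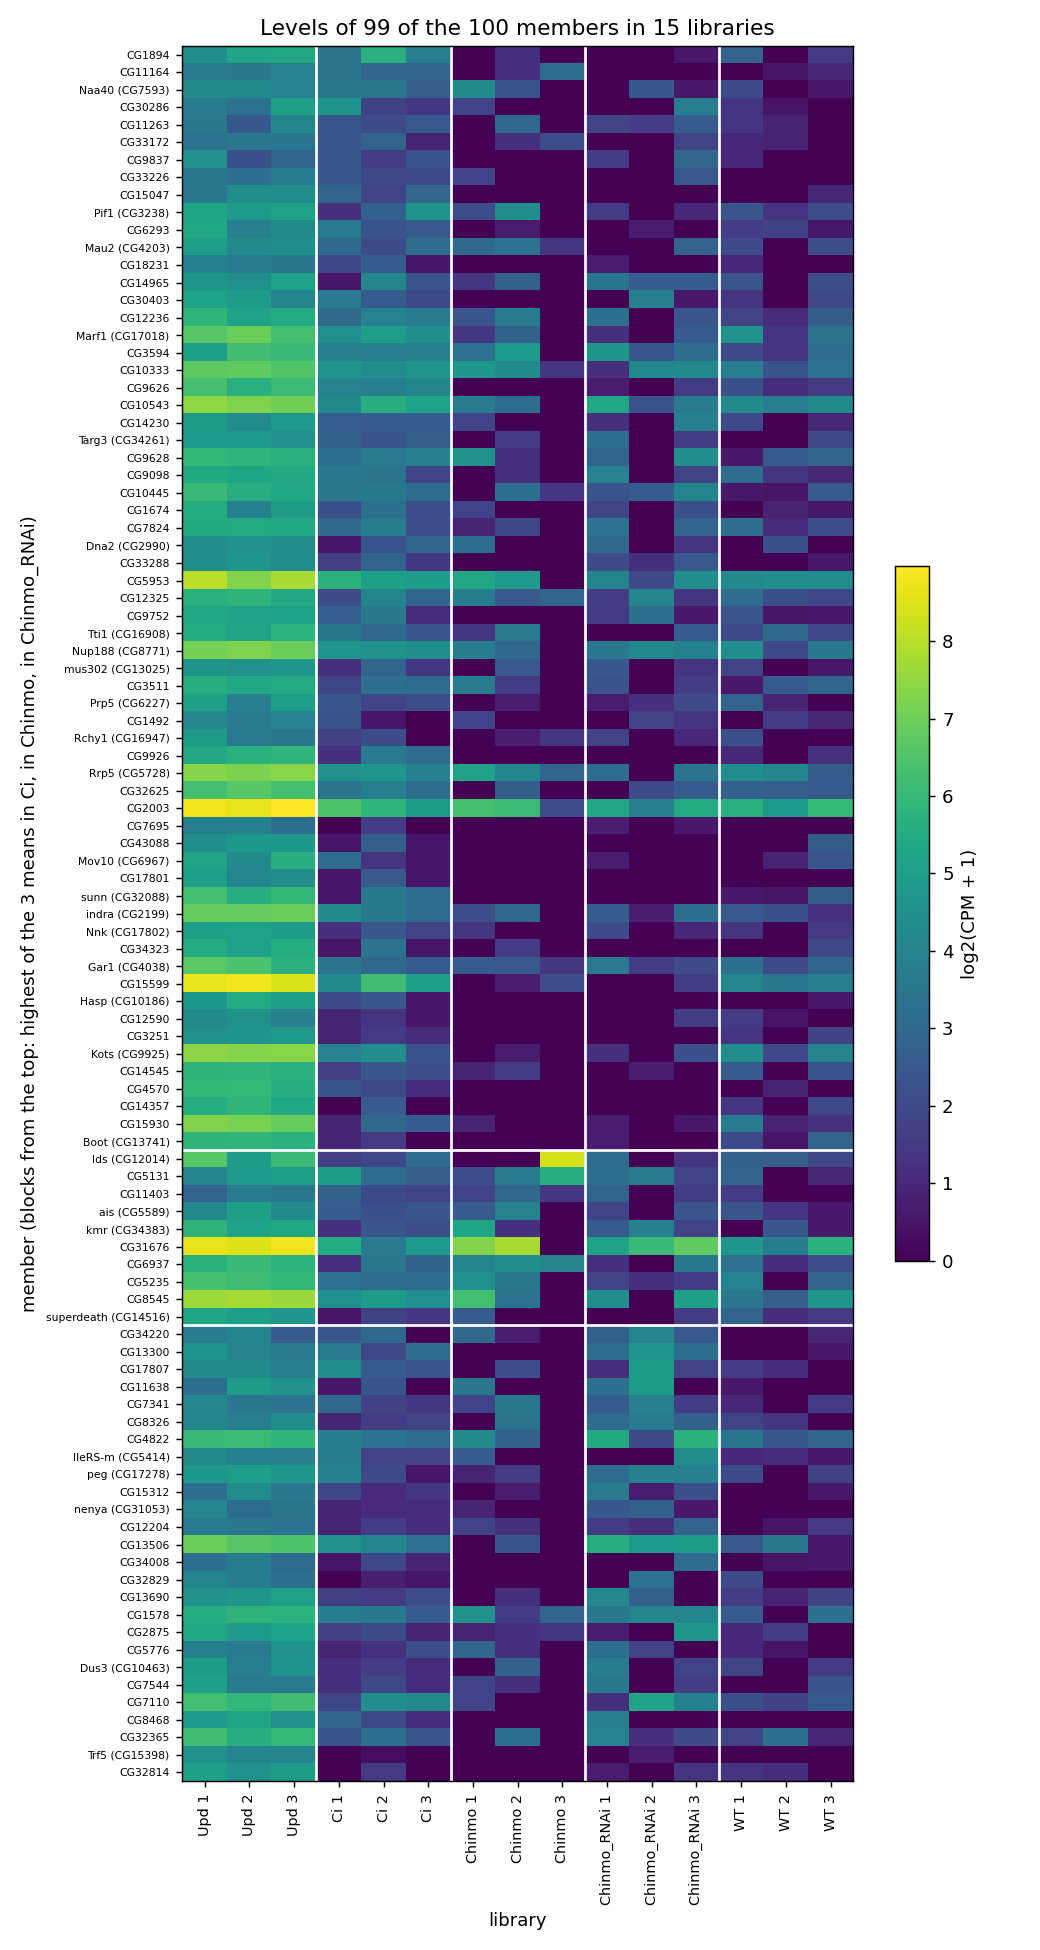
Level of 99 of the 100 genes (rows) in each of the 15 libraries (columns), as log2(CPM + 1), with the groups Upd, Ci, Chinmo, Chinmo_RNAi and WT from left to right. Blocks from the top hold the 63, 10 and 26 of these genes with the highest of the 3 means in Ci, Chinmo and Chinmo_RNAi. All 100 genes have a count in each Upd library, against 91 to 100 in Ci, 18 to 61 in Chinmo, 45 to 78 in Chinmo_RNAi and 60 to 76 in WT.

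Counted gene by gene, the median member reached 14.2% of its Upd mean in Ci, 4.003% in Chinmo and 9.72% in the libraries labelled Chinmo_RNAi. More than 50% of the Upd mean was reached by 6 genes in Ci, 2 in Chinmo and 7 under Chinmo_RNAi. Less than 10% of it was reached by 30, 65 and 51 genes in the same order of groups. The 3 libraries lay below all 3 Upd libraries for 92 genes in Ci, 91 in Chinmo and 88 under Chinmo_RNAi. High Upd values were part of the choice and the share over all genes was not computed, so nothing is read from these counts. Without Chinmo 3, the median in Chinmo was 4.72%, the number over 50% was 3 and the number under 10% was 64.

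The 3 groups also differed in how many genes were seen at all. Each of the 100 genes had at least 1 count over the 3 Ci libraries, while 25 had no count in Chinmo, 11 had none under Chinmo_RNAi and 6 had none in WT. Of all 10056 genes tested, 529 had no count in Ci or in Chinmo, and 350 had none in Ci or in Chinmo_RNAi. The 100 genes were chosen for high Upd levels whatever their level in these groups, so nothing is read from these counts. A gene without a count can still have been present at up to 0.904 CPM in Chinmo and 0.594 CPM under Chinmo_RNAi, from 3 counts over the group, which covers counting error only. Chinmo was also the group with the fewest counts, and 26 genes had none in Chinmo 1 and Chinmo 2 together. Among the 3 groups, the highest mean was in Ci for 64 genes, in Chinmo for 10 and under Chinmo_RNAi for 26. Over all 10056 genes tested, those shares were 42.0%, 25.7% and 32.3%. Without Chinmo 3 the tally was 56, 19 and 25 genes, beside 40.3%, 28.4% and 31.2% of the genes tested.

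**Figure D2:**
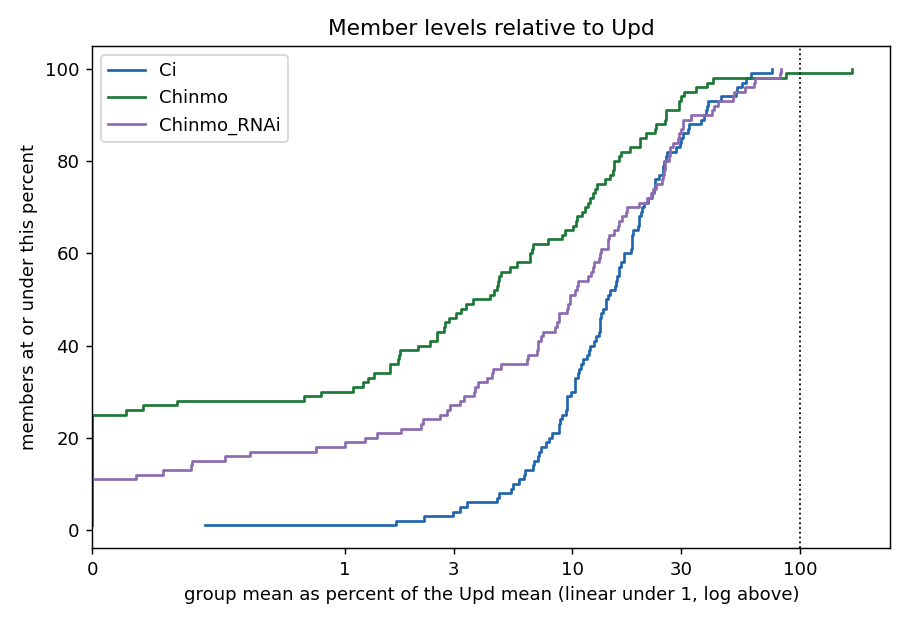
Cumulative curves of the 100 genes: the number of genes (vertical axis) whose group mean is at or under a given percentage of their Upd mean (horizontal axis, linear under 1 and log above), in Ci, Chinmo and Chinmo_RNAi. The curves begin at 25 genes without a count in Chinmo and 11 in Chinmo_RNAi, the medians are 14.2% in Ci, 4.003% in Chinmo and 9.72% in Chinmo_RNAi, and 1 gene, CG12014 (Ids), lies above its Upd mean (dotted line), in Chinmo.

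Set beside WT, whose values helped choose the genes, all 3 Ci libraries lay above all 3 WT libraries for 34 of the 100 genes, against 6.35% of the genes tested, and below them for 0 (5.8% of the genes tested). By the choice of genes, Upd lay above WT for all 100 (32.3% of the genes tested) and below it for 0 (35.1%). The libraries labelled Chinmo_RNAi lay above WT for 12 genes (15.3% of the genes tested) and below it for 3, CG15599, CG15930 and CG32088 (sunn) (20.8% of the genes tested). Chinmo lay above WT for 1 gene (7.93% of the genes tested) and below it for 7 (20.7%). That 1 gene, CG6937, had 15.8, 20.4 and 14.96 CPM in Chinmo, against 9.24, 1.19 and 3.32 CPM in WT. Chinmo 1 and Chinmo 2 alone lay above WT for 12 genes (18.1% of the genes tested) and below it for 8 (23.4%). The genes named here were picked out after their values were seen, and nothing is read from the counts because low WT values were part of the choice.

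The values of Ci, Chinmo and Chinmo_RNAi did not enter the choice, and differences among these groups were tested for every gene with edgeR's quasi-likelihood test, with Benjamini-Hochberg adjustment over 10056 genes and a threshold of 0.05. The estimate of spread was shared with the Upd and WT libraries, which did enter the choice. All 100 genes passed the filter on low counts, which they were bound to do through their Upd libraries. Against the libraries labelled Chinmo_RNAi, Ci was higher for 10 of the 100 genes and lower for 0. Over all genes tested, 7.18% were higher and 3.37% lower. Many of the 100 genes were low in both groups, and among the 62 with a mean of at least 5 CPM in either, 9 were higher (14.5%), against 7.76% of all genes tested at that level. At an unadjusted p under 0.05, 23 were higher and 0 lower by edgeR, beside 1652 higher and 931 lower of the 10056 genes tested. DESeq2 called 19 higher and 0 lower after adjustment. Its count of higher genes over all genes tested is given further below, and that of lower genes is not. Nothing is read from the 19 or the 0 alone. The median log2 difference was 0.59 over the 100 genes and 0.10 over all genes tested. Of the 4613 CG genes tested, 9.67% were higher and 2.67% lower, with a median of 0.40. For contrast, the 100 CG genes with the lowest ratio of Upd to WT were taken, at a WT mean of at least 20. Of those, 28 were higher and 7 lower, with a median of 1.71. Higher levels in Ci were thus not particular to the 100 genes described here.

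Against Chinmo, Ci was higher for 7 of the 100 genes and lower for 0, where 3.11% of all genes tested were higher and 4.96% lower. The unadjusted counts under 0.05 were 30 higher and 2 lower by edgeR, beside 1609 higher and 1183 lower of all genes tested. DESeq2 called 27 higher and 0 lower. Its count of higher genes over all genes is given further below, and that of lower genes is not, so nothing is read from the 27 or the 0 alone. The median log2 difference was 1.70 over the 100 genes and 0.39 over all genes. It was 0.64 over the CG genes tested, of which 3.47% were higher and 3.03% lower. Over the 100 CG genes with the lowest ratio of Upd to WT it was 1.52, with 8 higher and 5 lower. Between Chinmo and the libraries labelled Chinmo_RNAi, Chinmo was higher for 0 genes and lower for 2, beside 2.23% higher and 1.55% lower over all genes. Here 4 were higher and 17 lower at an unadjusted p under 0.05 by edgeR, beside 1113 higher and 1053 lower of all genes tested. DESeq2 called 1 higher and 4 lower, and its counts over all genes are given further below. The median log2 difference was -0.59 over the 100 genes and -0.07 over all genes. It was -0.02 over the CG genes tested, of which 2.02% were higher and 1.41% lower in Chinmo. Over the 100 CG genes with the lowest ratio it was 0.24, with 4 higher and 2 lower. Both comparisons of Ci use the same 3 Ci libraries, and both comparisons with Chinmo_RNAi use the same 3 libraries of that label.

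These counts depend on which libraries share the estimate of spread and on the scaling. Without the Upd and WT libraries in the model, an alternative chosen after seeing the data, 2, 0 and 0 of the 100 genes passed in the 3 comparisons. With size factors in place of TMM, the median over all genes moved to 0.47 for Ci against Chinmo_RNAi and to 0.75 for Ci against Chinmo. Relative to that median, the 100 genes lay 0.49 higher with TMM and 0.52 higher with size factors in the first comparison, and 1.32 and 1.30 higher in the second. Size factors also moved the share of higher calls among all calls to 82.9%, against 68.0% with TMM, for Ci against Chinmo_RNAi. For Ci against Chinmo that share was 63.3%, against 38.5% with TMM.

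**Figure D3:**
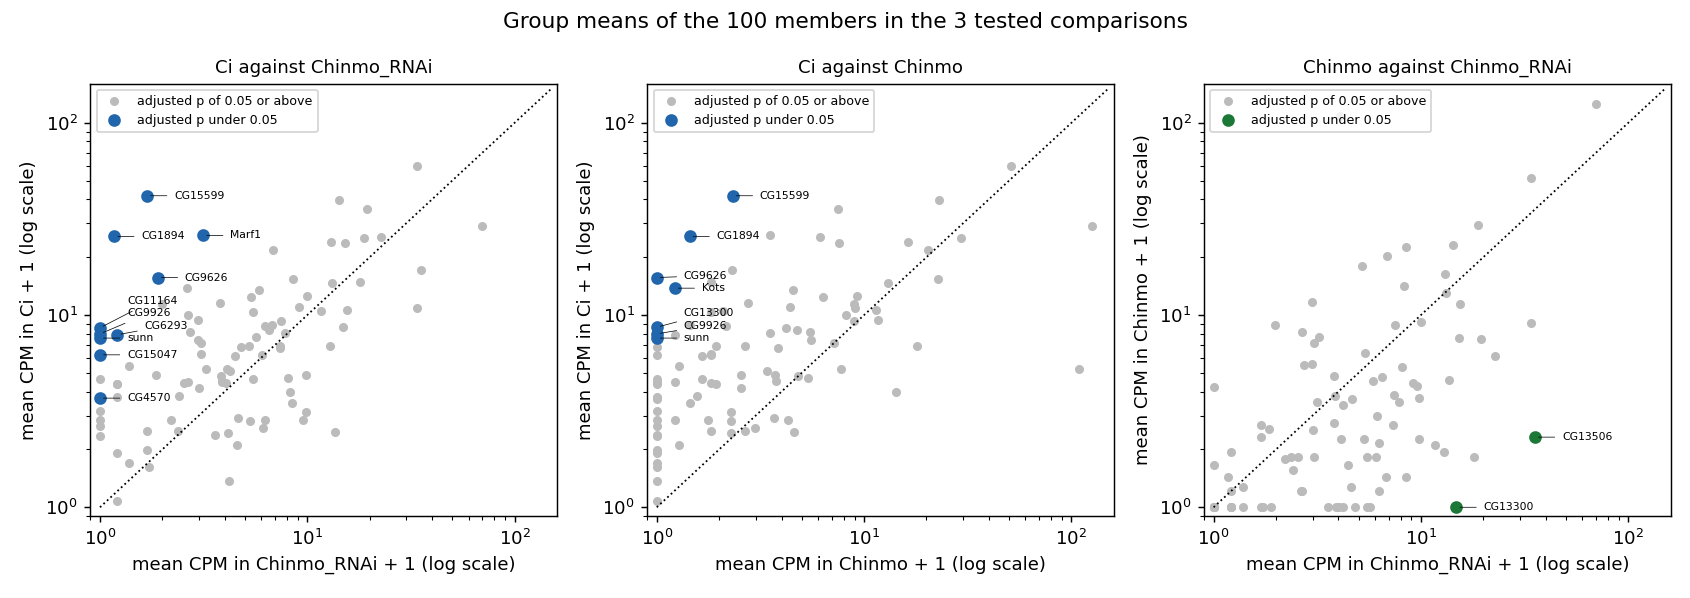
Group means of the 100 genes as CPM + 1 on log axes, in the 3 tested comparisons, with the dotted line marking equal levels. Coloured and named points are the 10, 7 and 2 genes with an adjusted p under 0.05 (edgeR); grey points did not pass.

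CG15599 gave the smallest adjusted p of the 100 genes in both comparisons of Ci. It had 408, 442 and 344 CPM in Upd, 18.3, 72.5 and 31.6 CPM in Ci, 0, 0.659 and 3.32 CPM in Chinmo, and 0, 0 and 2.06 CPM in the libraries labelled Chinmo_RNAi. WT had 16.9, 10.3 and 13.3 CPM, so Ci and WT lay well above Chinmo and Chinmo_RNAi, and none of the Ci libraries overlapped with those of the last 2 groups. The log2 difference of Ci against Chinmo_RNAi was 5.65 ± 0.92 (SE, edgeR adjusted p = 0.00101). Against Chinmo, where 3 counts were seen, the ratio was 53.0 (95% counting interval 18.0 to 258, edgeR adjusted p = 0.00462). Both calls held when each library was left out in turn, with adjusted p of 0.00101 to 0.0127 and 0.0023 to 0.0424 from edgeR. The call against Chinmo was lost without the Upd and WT libraries in the model (edgeR adjusted p = 0.0914) and with only the 2 groups compared (0.113). The gene lies on X at 15684947 to 15688857, minus strand, and its longest protein has 1144 residues.

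CG9626 was the most even of these genes across the Ci libraries. It had 14.7, 13.6 and 15.8 CPM in Ci, no count in Chinmo, and 0.641, 0 and 2.06 CPM under Chinmo_RNAi. Ci was thus at least 16.0-fold higher than Chinmo (limit from 3 counts over the group, edgeR adjusted p = 0.00892), and this call held without each library in turn (0.0105 to 0.0469). The same call was lost without the Upd and WT libraries in the model (edgeR adjusted p = 0.0808) and with only the 2 groups compared (0.113). Against Chinmo_RNAi the log2 difference was 3.87 ± 1.03 (SE, edgeR adjusted p = 0.0217). It did not pass without Ci 2, Ci 3, Chinmo_RNAi 1 or Chinmo_RNAi 2, with an adjusted p of up to 0.0828 from edgeR.

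CG1894 came nearest to its Upd level in Ci, at 75.3% of the Upd mean. It had 21.2, 36.8 and 40.2 CPM in Upd and 9.80, 51.0 and 13.2 CPM in Ci, so the library Ci 2 exceeded every Upd library. It had 0, 1.32 and 0 CPM in Chinmo and 0, 0 and 0.516 CPM under Chinmo_RNAi. The ratio of Ci to Chinmo_RNAi rested on 1 count in the second group and was 154 (95% counting interval 27.5 to 6123, edgeR adjusted p = 0.0111). Against Chinmo, with 2 counts, it was 50.7 (13.9 to 421, edgeR adjusted p = 0.0274). The first call was lost without Ci 2 or Chinmo_RNAi 2 (adjusted p up to 0.0573) and the second without Ci 2, Ci 3 or Chinmo 1 (up to 0.135, edgeR).

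CG9926 and CG32088 (sunn) had no count in Chinmo or under Chinmo_RNAi. CG9926 had 1.34, 11.9 and 7.68 CPM in Ci, and sunn, whose product is needed for sister chromatid cohesion in meiosis, had 0.445, 11.2 and 8.11 CPM. In both genes Ci 1 was the lowest Ci library. CG9926 was at least 13.7-fold higher in Ci than under Chinmo_RNAi (edgeR adjusted p = 0.0181) and at least 8.99-fold higher than in Chinmo (0.0361). For sunn the limits were at least 12.9-fold (edgeR adjusted p = 0.0263) and at least 8.49-fold (0.0488). The calls against Chinmo_RNAi were lost for CG9926 without Ci 2, Chinmo_RNAi 1 or Chinmo_RNAi 2 (edgeR adjusted p up to 0.0711) and for sunn without each library except Ci 1 (up to 0.0947). Against Chinmo they were lost for CG9926 without Ci 2, Ci 3, Chinmo 1 or Chinmo 2 (up to 0.129) and for sunn without each library except Ci 1 (up to 0.150).

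Another 5 genes were higher in Ci than under Chinmo_RNAi. CG11164 had 9.80, 6.55 and 6.40 CPM in Ci and no count under Chinmo_RNAi, at least 12.4-fold (edgeR adjusted p = 0.0217). CG15047 had 6.24, 2.57 and 6.83 CPM in Ci and no count under Chinmo_RNAi, at least 7.79-fold (edgeR adjusted p = 0.032). CG4570, the gene with the highest ratio of Upd to WT, had 4.01, 2.81 and 1.28 CPM in Ci and no count in Chinmo or Chinmo_RNAi, at least 4.56-fold higher than the second (edgeR adjusted p = 0.0434). These 3 genes were low in Ci as well, with 65, 41 and 24 counts over its 3 libraries. CG6293 had 12.02, 3.97 and 4.69 CPM in Ci and 1 count under Chinmo_RNAi, a ratio of 31.4 (95% counting interval 5.40 to 1260, edgeR adjusted p = 0.0327). CG17018 (Marf1), a regulator of messenger RNAs known from meiosis in the female germ line, had 21.8, 31.8 and 21.3 CPM in Ci and 1.28, 0 and 5.16 CPM under Chinmo_RNAi. Its log2 difference was 3.46 ± 1.08 (SE, edgeR adjusted p = 0.0436). The calls of CG15047, CG4570 and CG6293 were lost without each of the 6 libraries (edgeR adjusted p up to 0.0862, 0.108 and 0.107). CG11164 kept its call in 1 of the 6, the one without Ci 1 (up to 0.0705), and Marf1 in the one without Chinmo_RNAi 3 (edgeR adjusted p up to 0.138).

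Against Chinmo, 2 further genes were higher in Ci. CG9925 (Kots, Kotsubu), a Tudor-domain protein of the piRNA pathway in spermatocytes, had 14.7, 19.9 and 3.84 CPM in Ci and 1 count in Chinmo, a ratio of 47.6 (95% counting interval 8.38 to 1893, edgeR adjusted p = 0.0225). CG13300 had 12.02, 2.81 and 8.11 CPM in Ci and no count in Chinmo, at least 7.24-fold (edgeR adjusted p = 0.028). In both genes every Ci library lay above every Chinmo library. The Kots call was lost without Ci 2 or Chinmo 1 (edgeR adjusted p up to 0.0969), and that of CG13300 without Chinmo 1 or any 1 Ci library (up to 0.0845).

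CG13300 and CG13506 were the 2 genes lower in Chinmo than under Chinmo_RNAi. CG13300 had no count in Chinmo, against 7.70, 25.1 and 8.77 CPM under Chinmo_RNAi, so it was at least 14.9-fold lower in Chinmo (edgeR adjusted p = 0.028). CG13506 had 0, 3.95 and 0 CPM in Chinmo, against 47.5, 27.6 and 28.4 CPM under Chinmo_RNAi, a log2 difference of -4.38 ± 1.10 (SE, edgeR adjusted p = 0.034). In Ci, CG13506 had 23.2, 16.1 and 9.39 CPM, all below the Chinmo_RNAi libraries, a difference that did not pass the test. The CG13300 call was lost without Chinmo_RNAi 1 or Chinmo_RNAi 2 (edgeR adjusted p up to 0.0676) and that of CG13506 without Chinmo 1 or any 1 of the Chinmo_RNAi libraries (up to 0.101). The next gene by p, CG7110, had 2.501, 0 and 0 CPM in Chinmo, against 1.28, 35.3 and 14.4 CPM under Chinmo_RNAi (edgeR adjusted p = 0.068).

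**Figure D4:**
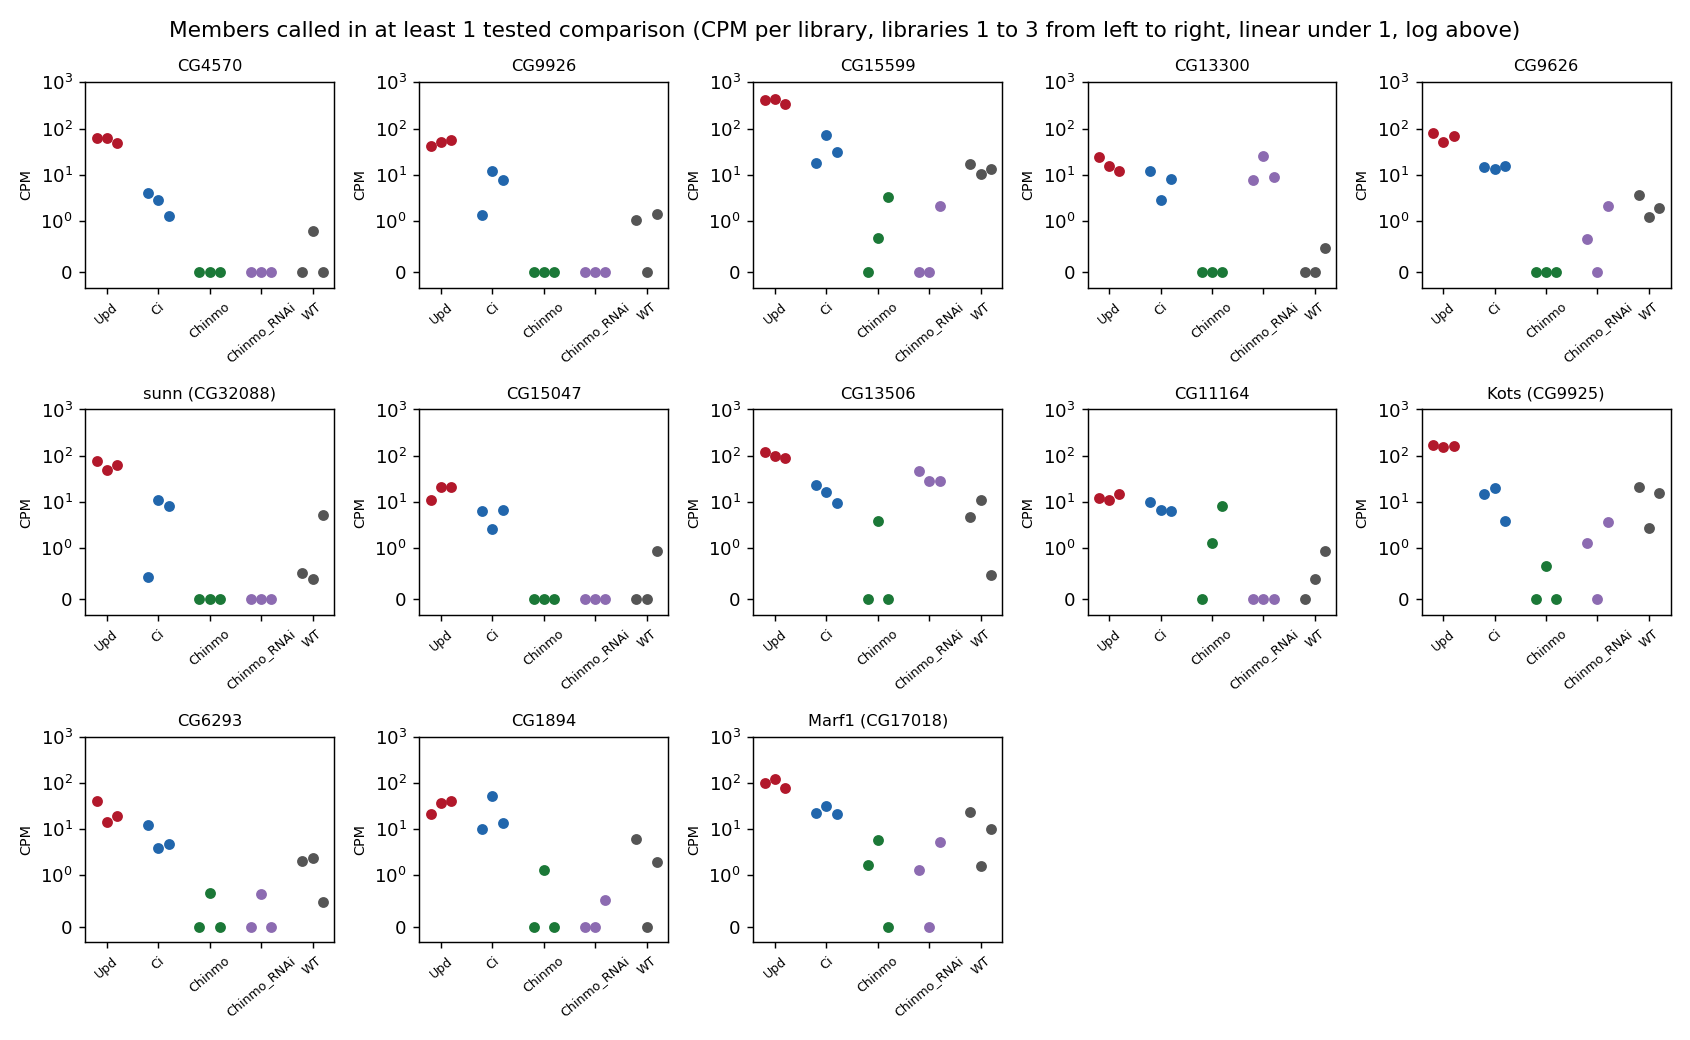
CPM in each library (linear under 1, log above), groups from left to right Upd, Ci, Chinmo, Chinmo_RNAi and WT, for the genes with an adjusted p under 0.05 in at least 1 tested comparison (edgeR). CG15599 has 344 to 442 CPM in Upd, 18.3 to 72.5 in Ci and at most 3.32 in Chinmo and Chinmo_RNAi.

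Some genes kept a larger part of their Upd level in 1 of the other groups, and these are given as values because they were picked by that level. In Ci, CG1894 was followed by CG11164 (60.6% of the Upd mean), CG5131 (57.6%), CG17807 (55.8%), CG7593 (Naa40, an acetyltransferase of histone N-termini, 52.7%) and CG30286 (52.5%). Of these, CG30286 rested on Ci 1, with 24.0, 2.34 and 1.71 CPM, and CG17807 likewise, with 19.2, 4.91 and 4.27 CPM. Under Chinmo_RNAi the highest were CG34220 (82.7%), CG13300 (81.6%), CG17807 (63.3%), CG11638 (62.6%), CG7341 (57.2%) and CG8326 (51.2%). CG34220 had 11.6, 15.4 and 4.99 CPM in Upd, against 5.77, 16.1 and 4.64 CPM under Chinmo_RNAi, so the 2 groups overlapped in full. CG8326 was even across the libraries, with 7.70, 12.2 and 5.68 CPM, whereas CG11638 had 8.98, 28.9 and 0 CPM and CG17807 had 1.28, 28.3 and 2.58 CPM.

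In Chinmo the top of this order was set by Chinmo 3. CG12014 (Ids), which encodes the lysosomal enzyme iduronate 2-sulfatase, had 0, 0 and 322 CPM, from 194 counts in Chinmo 3, and averaged 169% of its Upd mean. Without that library it had no count in Chinmo, so that its direction against Ci turned. CG5131 had 3.34, 11.9 and 49.9 CPM and a mean of 7.59 CPM without Chinmo 3, against 16.0, 27.7 and 31.5 CPM in Upd. Naa40 (41.6%), CG11403 (39.1%), CG7341 (34.9%) and CG5589 (ais, aramis, a DEAD-box helicase of ribosome biogenesis, 29.3%) followed, and each varied several-fold among the Chinmo libraries. In the other direction, CG31676 had 152 and 221 CPM in Chinmo 1 and Chinmo 2 and no count in Chinmo 3. Without Chinmo 3 in the comparison, this gene was lower in Ci than in Chinmo (44.5, 12.2 and 27.7 CPM in Ci, log2 difference -2.43, edgeR adjusted p = 0.0135).

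At the other end stood genes that were nearly absent outside Upd. CG15398 (Trf5) had 22.0, 15.4 and 14.97 CPM in Upd and a total of 1 count in Ci, 0 in Chinmo and 1 under Chinmo_RNAi. CG13741 (Boot, Bootlegger), which takes part in the nuclear export of piRNA precursors, had 55.5, 57.2 and 51.5 CPM in Upd, 0.891, 1.87 and 0 CPM in Ci and at most 0.641 CPM in a library of the other 2 groups. WT had 3.08, 0.398 and 6.17 CPM of Boot. CG3251 had 22.8, 24.2 and 27.1 CPM in Upd and 0.891, 1.87 and 1.28 CPM in Ci, with no count in Chinmo or Chinmo_RNAi. CG7695 and CG32814 were alike, with 9 and 8 counts over the Ci libraries and no count in Chinmo.

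Per kilobase of exon, which allows levels to be compared between genes, CG31676 was the most abundant in Upd at 361 CPM per kb, followed by CG2003 (221), CG32625 (140), CG15599 (108) and CG4038 (Gar1, 82.5). CG31676 was also the highest per kilobase in Chinmo (112) and under Chinmo_RNAi (62.2), while CG2003 was the highest in Ci (29.2). CG2003 had 437, 397 and 499 CPM in Upd, 89.1, 56.8 and 30.3 in Ci, 80.0, 67.8 and 3.32 in Chinmo, 41.0, 14.1 and 43.3 under Chinmo_RNAi and 50.8, 27.1 and 62.7 in WT. Its Ci and WT ranges overlapped. The median coefficient of variation over the Upd libraries was 19.3% for the 100 genes and 24.0% for all genes tested.

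Genes with another name were grouped by what is known of their products. In RNA and ribosome synthesis 8 genes had a summed level of 431 to 497 CPM in Upd, 52.9 to 86.0 in Ci, 8.31 to 51.7 in Chinmo (48.7 to 51.7 without Chinmo 3), 3.21 to 46.9 under Chinmo_RNAi and 25.5 to 66.2 in WT. CG5728 (Rrp5, pre-ribosomal RNA processing) had 162, 146 and 166 CPM in Upd and 23.2, 24.8 and 14.5 CPM in Ci. Its Chinmo libraries were uneven, with 35.0, 16.5 and 6.65 CPM. CG4038 (Gar1, a protein of the H/ACA ribonucleoprotein that makes pseudouridine) averaged 78.9 CPM in Upd and 7.39 in Ci. CG10463 (Dus3, a dihydrouridine synthase of transfer RNA) averaged 22.1 CPM in Upd and 1.57 in Ci. CG6227 (Prp5, a helicase of the spliceosome) averaged 26.2 CPM in Upd and 3.48 in Ci, and CG6967 (Mov10, an RNA helicase) 34.2 and 3.36. CG5414 (IleRS-m, the mitochondrial isoleucyl-tRNA synthetase) had 12.5, 2.57 and 2.56 CPM in Ci and reached 38.8% of its Upd mean. Of the 8 genes, Marf1 passed a test, against Chinmo_RNAi, where 7.18% of all genes tested were higher in Ci.

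Genes of DNA, chromosomes and meiosis numbered 10, with a summed level of 349 to 417 CPM in Upd, 53.0 to 69.5 in Ci, 1.66 to 57.3 in Chinmo (44.2 to 57.3 without Chinmo 3), 10.9 to 26.3 under Chinmo_RNAi and 16.7 to 22.6 in WT. The lowest Ci sum was above the highest WT and Chinmo_RNAi sums. Low WT values were part of the choice of genes, so nothing is read from the gap to WT, and the gap to Chinmo_RNAi was not tested as a sum. CG2199 (indra), a zinc-finger protein that binds ribosomal DNA, had 114, 111 and 119.7 CPM in Upd, 18.7, 11.2 and 7.68 in Ci and 3.34, 7.24 and 0 in Chinmo. It had 5.13, 0.642 and 8.77 CPM under Chinmo_RNAi, so these libraries overlapped with Ci. CG3238 (Pif1, a DNA helicase) had 1.34, 5.85 and 23.9 CPM in Ci and 3.34, 20.4 and 0 in Chinmo, a wide spread in both. CG2990 (Dna2, a nuclease and helicase of DNA replication) averaged 21.6 CPM in Upd and 3.53 in Ci. CG16908 (Tti1, a cofactor for the stability of PIKK kinases) averaged 44.8 and 7.17 CPM, CG13025 (mus302, known for mutagen sensitivity) 23.5 and 3.20, and CG4203 (Mau2, a cohesin loader) 23.7 and 6.17. CG31053 (nenya), a RING protein of meiotic recombination in females, was seen in Upd (16.8, 8.07 and 10.3 CPM) and had no count in WT. Its level under Chinmo_RNAi, 4.49, 5.78 and 0.516 CPM, overlapped with that in Ci, 0.891, 1.17 and 1.28 CPM. Of the 10 genes, sunn passed both tests of Ci, where 7.18% (against Chinmo_RNAi) and 3.11% (against Chinmo) of all genes tested were higher.

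Of the 2 piRNA pathway genes, Kots was higher in Ci than in Chinmo, as were 3.11% of all genes tested, and Boot passed no test. Kots had 168, 157 and 165 CPM in Upd and 20.5, 2.79 and 15.2 CPM in WT, so its Ci and WT libraries overlapped. Among the other 9 named genes none passed. CG8771 (Nup188, a nucleoporin) averaged 136 CPM in Upd, 22.8 ± 1.81 in Ci, 6.58 ± 6.28 in Chinmo and 14.2 ± 3.23 under Chinmo_RNAi (SD, n = 3). CG17278 (peg), a small secreted protein that aids the spread of Wingless, had 14.3, 3.04 and 0.427 CPM in Ci, 0.834, 1.98 and 0 in Chinmo and 7.70, 14.1 and 13.9 under Chinmo_RNAi. The Chinmo_RNAi libraries of peg thus lay above those of Chinmo, a difference that did not pass. CG10186 (Hasp), a scaffold protein of synapses, had 26.4, 44.2 and 33.4 CPM in Upd, 3.12, 4.44 and 0.427 in Ci and no count in Chinmo or Chinmo_RNAi. CG16947 (Rchy1, a RING ubiquitin ligase) averaged 17.1 CPM in Upd and 1.83 in Ci. CG34383 (kmr), whose longest protein of 3090 residues was the longest of all, had 38.4, 1.32 and 0 CPM in Chinmo. CG34261 (Targ3) and CG14516 (superdeath) were the remaining genes of this group.

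The 70 genes known by number alone had a median of 28.6 CPM in Upd, 5.503 in Ci, 1.13 in Chinmo, 4.01 under Chinmo_RNAi and 1.42 in WT. Of the 12 highest by ratio, CG8468 had 6.68, 3.04 and 1.28 CPM in Ci, no count in Chinmo, and 13.5, 0 and 0 CPM under Chinmo_RNAi. CG33288 had 2.23, 6.31 and 1.71 CPM in Ci, no count in Chinmo, and 3.21, 1.28 and 4.64 CPM under Chinmo_RNAi. Ci and Chinmo_RNAi overlapped in both. CG1674, the 1 gene of the 100 on chromosome 4, had 3.56, 8.88 and 3.41 CPM in Ci and averaged 0.834 CPM in Chinmo. CG34323 had 0.445, 10.1 and 0.427 CPM in Ci, so its Ci mean came almost whole from Ci 2.

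Other cell types were followed with marker lists in the same libraries. The 16 early germ line markers were summed without tud as well, a choice made after seeing that tud alone averaged 520 CPM in Upd and 1410 in Chinmo. The other 15 took 2071 to 2371 CPM in Upd, 210 to 355 in Ci, 59.8 to 93.5 in Chinmo, 41.1 to 95.4 under Chinmo_RNAi and 119 to 166 in WT. With tud the list took 2520 to 3003 CPM in Upd, 669.9 to 1008 in Ci, 1169.8 to 2026 in Chinmo, 1383 to 1693 under Chinmo_RNAi and 559.8 to 943 in WT. Of the 16 markers, vas, aub, AGO3, bgcn, zpg and del were higher and tud lower in Ci than under Chinmo_RNAi, and vas, aub, AGO3, bgcn and qin higher and tud lower in Ci than in Chinmo (edgeR adjusted p under the threshold). The germ line helicase gene vas averaged 383 CPM in Upd, 22.5 in Ci, 0.878 in Chinmo, 1.76 under Chinmo_RNAi and 8.57 in WT. Of the 16 markers, zpg, bam, otu and rhi had no count in Chinmo, and zpg and nos had none under Chinmo_RNAi. All other markers of the list had counts in those groups. A marker without a count can still have been present at up to 0.904 CPM in Chinmo and 0.594 CPM under Chinmo_RNAi. The part of the early germ line markers in the levels of the 100 genes was not tested.

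The 22 genes of the cell cycle and replication took 2232 to 2375 CPM in Upd, 461 to 798 in Ci, 322 to 404 in Chinmo, 146 to 351 under Chinmo_RNAi and 451 to 546 in WT. Of them, polo and aurA, kinases of mitosis and meiosis, were higher in Ci in both comparisons (edgeR). The 14 genes of ribosome biogenesis took 2105 to 2186 CPM in Upd and 318 to 455 in Ci. In Chinmo they took 415 to 1818 CPM, the highest value being that of Chinmo 3, and RpI1, with 31.7, 7.90 and 1683 CPM in Chinmo 1 to 3, was lower in Ci than in Chinmo and higher in Chinmo than under Chinmo_RNAi (edgeR). The 13 cyst stem cell markers took 4175 to 4999.9 CPM in Upd, 1298 to 1985 in Ci, 1246 to 1604 in Chinmo, 1865 to 2341 under Chinmo_RNAi and 952 to 1457 in WT. The list includes chinmo, which Chinmo flies also carried as a transgene, so the Chinmo sum is not independent of the transgene. The gene averaged 418 ± 331 CPM in Chinmo (100 to 761, SD, n = 3), 607 in Upd and 71.9 in WT. Its lowest Chinmo library lay below its highest Chinmo_RNAi library (147 CPM). CadN, Wnt4 and dsx were higher in Ci than in Chinmo, and chinmo was higher and dsx lower in Chinmo than under Chinmo_RNAi (edgeR). The 22 markers of spermatocytes and spermatids ran the other way, with 186 to 276 CPM in Upd, 4308 to 7888 in Ci, 2169 to 3512 in Chinmo, 3092 to 4182 under Chinmo_RNAi and 5130.1 to 9220 in WT. Of these markers Mst77F, fzo, bol, can and aly were higher in Ci than under Chinmo_RNAi, fzo, bol and twe higher in Ci than in Chinmo, and Mst77F higher in Chinmo than under Chinmo_RNAi (edgeR). The 8 markers of differentiating cyst cells took 372 to 406 CPM in Upd, 1973 to 3652 in Ci, 4183 to 6200 in Chinmo, 2435 to 3164 under Chinmo_RNAi and 3383 to 4169 in WT, and CG6084 was lower in Ci than in Chinmo and higher in Chinmo than under Chinmo_RNAi (edgeR). The 6 hub markers took 684 to 737 CPM in Upd, 285 to 533 in Ci, 579.5 to 980.4 in Chinmo, 1131 to 1614 under Chinmo_RNAi and 415 to 437 in WT. Of these, hh, Fas3 and shg were lower in Ci than under Chinmo_RNAi, dpp lower in Ci than in Chinmo and hh lower in Chinmo than under Chinmo_RNAi (edgeR). The hub list includes upd1, the gene for Upd, which averaged 196 CPM in Upd and 6.78 in WT, so its Upd sum is not independent of the transgene. The 6 hemocyte markers took 139 to 159 CPM in Upd, 130.2 to 338 in Ci, 534 to 947 in Chinmo, 740.2 to 833 under Chinmo_RNAi and 246 to 450.1 in WT. The 5 neuron markers took 128 to 209.7 CPM in Upd, 51.2 to 131 in Ci, 108 to 176 in Chinmo, 268 to 429 under Chinmo_RNAi and 57.0 to 159.5 in WT. Neither list overlapped between Ci and Chinmo_RNAi, where the Ci libraries were the lower. The 12 muscle sheath markers took 425 to 505 CPM in Upd, 523 to 742 in Ci, 569.96 to 775 in Chinmo, 822 to 1063 under Chinmo_RNAi and 578 to 725 in WT. Of these lists Tm1, crq and nSyb were lower in Ci than under Chinmo_RNAi, and crq lower in Ci than in Chinmo (edgeR). The part of these lists in the levels of the 100 genes was not tested either.

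**Figure D5:**
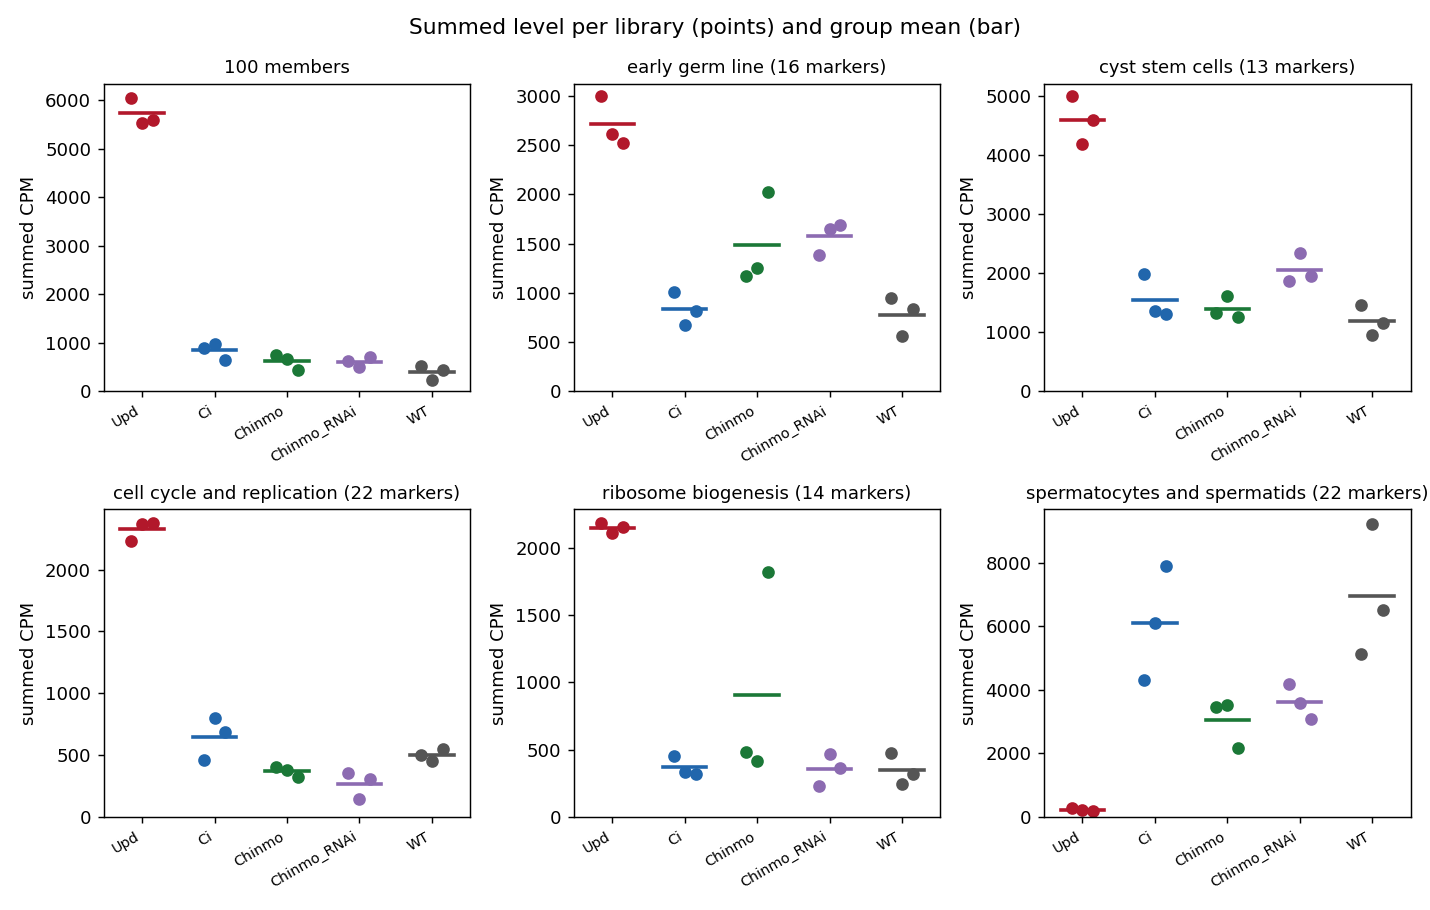
Summed CPM per library (points) and group mean (bar) of the 100 genes and of 5 marker lists, groups from left to right Upd, Ci, Chinmo, Chinmo_RNAi and WT. The 100 genes take 5538 to 6053 CPM in Upd and 651 to 982 in Ci, and the spermatocyte and spermatid list takes 186 to 276 CPM in Upd and 4308 to 7888 in Ci.

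Position and length in the genome were not part of the choice. The 100 genes lie on X (21), 2L (17), 2R (18), 3L (17), 3R (26) and 4 (1), and X holds 16.3% of all genes tested. The 100 CG genes with the lowest ratio of Upd to WT, chosen with the minimum of 20 set on the WT mean instead, had 4 on X. The median exon length of the 100 genes was 2070 bases and the median protein 508 residues, against 1903 bases and 445 residues over all genes tested. Genes with a single block of exon made up 12% of the 100, 16.3% of all genes tested and 43% of the genes at the other end. The 100 were drawn from the 2309 CG genes with at least 20 in Upd. Of those, 10.3% had a single block and 17.0% lay on X, with medians of 1938 bases and 440 residues. These shares are a description without a test.

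A few of the 100 genes are neighbours (BDGP6.54). CG17802 (Nnk, Nicknack, a zinc-finger protein of heterochromatin) at chr3R:17803225-17805249 and CG17801 at chr3R:17805679-17807085 lie 429 bases apart on the minus strand. Nnk had 32.4, 34.0 and 29.0 CPM in Upd and 1.34, 4.44 and 2.56 in Ci, and CG17801 had 31.2, 16.8 and 20.3 CPM in Upd and 0.445, 4.68 and 0.427 in Ci. Both were highest among the Ci libraries in Ci 2. CG11638 at chrX:1013984-1026703 and CG32814 at chrX:1019795-1026700 overlap on the minus strand, so reads of shared exons cannot be assigned with certainty to either. With 1 gene between them lie CG9926 and Kots on 3R, both higher in Ci than in Chinmo, and CG30286 and CG33226 on 2R. Of the 100 genes, 60 share no exon base with another gene, 34 share some with a gene on the other strand and 9 with a gene on the same strand. The strand setting of the counting is not given in the sources used here, so reads from the 2 strands cannot be told apart there. The shared part was at most 31.4% of the exon bases, in Targ3, followed by mus302 (29.7%) and CG6293 (25.5%).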

How the data were processed

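The deposited count table gives whole numbers of reads per gene, with 5 summary lines that were left out. The deposited signal is each count over its library's size factor, checked by division to within 0.0423 in the unit of that table. Per the submitters' processing notes, bcl2fastq, STAR, Picard, HTSeq and DESeq2 were used, with the builds dm6 and BDGP6. Tool versions, the strand setting and the annotation release were not given in the sources read. The signal served to choose the 100 genes, and every other value rests on the counts.

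Symbols were matched to the BDGP6.54 annotation, for 17253 of 17408 genes, 30 of the 100 by locus tag or synonym through a RefSeq gene table. Genes were kept by filterByExpr (10056 genes, all 100 members among them), scaled by TMM and fitted with 1 mean per group over all 15 libraries (glmQLFit, robust, in edgeR 4.0.16 under R 4.3.3). The common dispersion was 0.427. Ci against Chinmo_RNAi, Ci against Chinmo and Chinmo against Chinmo_RNAi were tested by the two-sided F test of that model. Where a group had 0 counts of a gene, the fold is a lower limit computed with 3 counts for the whole group. With 1 to 3 counts it is a ratio of pooled counts with an exact 95% interval. Both cover counting error only. Code was tested on simulated data.

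Genes named were the 12 highest by ratio, those at the limits of the choice, up to 8 per direction past the threshold in each comparison (or the 3 with the smallest p where fewer than 3 passed), the 6 nearest to their Upd level in each of the 3 groups, neighbours in the annotation (protein identity was not computed), those with names (1 of them is not reported here), the 5 lowest outside Upd and the most abundant per kilobase. CG4570 and Marf1, past the threshold beyond those 8, are named as well, as are CG6937 and CG15930. The 100 genes, the 10 marker lists and the naming rule were chosen with earlier results of these data known. No batch is given in the labels. Alternatives were other scalings (size factors, upper quartile), no filter or a stricter filter (5 CPM), DESeq2 1.42.0, limma-voom 3.58.1, a replicate block, only the 2 groups compared, other limits for the choice of genes, and leaving out each library. A model without Chinmo 3 and one without the Upd and WT libraries were added after seeing the data.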

Additional observations from a re-analysis of the deposited data

How the results depend on the processing

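The counts of genes past the threshold moved with the model, while no call of a member changed direction in the alternatives run. Ids, which passed no test in the model used, did turn: it averaged 4.24 CPM in Ci and 107 CPM in Chinmo, and had no count in Chinmo without Chinmo 3. For Ci against Chinmo_RNAi the main counts were 722 higher and 339 lower of all genes, and 10 and 0 of the 100. Size factors gave 214 lower, DESeq2 1693 higher and 19 of the 100, limma-voom 1464 higher and 735 lower, only the 2 groups 625 lower and 6 of the 100. The model without Chinmo 3 gave 1776 higher, 635 lower and 18 of the 100, and the one without Upd and WT 222, 96 and 2. For Ci against Chinmo the main counts were 313 higher and 499 lower, and 7 and 0 of the 100. Size factors gave 693 higher and 15 of the 100, the upper quartile 808 lower, no filter 575 higher with 12 higher and 2 lower of the 100, DESeq2 1761 higher and 27 of the 100, and limma-voom 1331 higher and 16 of the 100. Only the 2 groups gave 0 higher, 3 lower and 0 of the 100, and the model without Upd and WT 6, 72 and 0. For Chinmo against Chinmo_RNAi the main counts were 224 higher and 156 lower, and 0 and 2 of the 100. The upper quartile gave 376 higher, no filter 485 higher and 282 lower with 1 of the 100 higher, DESeq2 617 and 589 with 1 higher and 4 lower of the 100, and limma-voom 117 and 260. Only the 2 groups gave 1 higher, 3 lower and 0 of the 100 lower, and the model without Upd and WT 9, 14 and 0. The causes were not tested. The stricter filter kept every count within 1.5 times.

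The labels tie same-numbered libraries by nothing but the number. In the 3 groups compared, correlations of their deviations ran from -0.0813 to 0.0504 over 9 pairs. With WT they reached 0.295 for Ci 1 and WT 1 and 0.103 for Ci 2 and WT 2. Such values cannot settle if same-numbered libraries were handled together. With the replicate number as a block, the counts of higher genes were 457, 126 and 39 in the 3 comparisons, those of lower genes 237, 274 and 50, and of the 100 genes 6 and 3 were higher in Ci and 0 lower in Chinmo. Leaving out 1 library at a time gave, for Ci against Chinmo_RNAi, 154 to 639 higher, 53 to 277 lower and 1 to 7 of the 100 higher, lowest without Ci 2 or Chinmo_RNAi 2. For Ci against Chinmo it gave 15 to 657, 26 to 712 and 2 to 9 of the 100 higher, lowest without Ci 2, with 0 to 1 lower. For Chinmo against Chinmo_RNAi it gave 4 to 433, 11 to 282 and, of the 100, 0 to 1 higher and 0 to 2 lower, with 0 lower without Chinmo_RNAi 1 or Chinmo_RNAi 2. The gene counted lower in Ci was Ids without Chinmo 1 or Chinmo 2 and CG31676 without Chinmo 3, and Ids was also the gene higher in Chinmo.

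The choice of the 100 genes shared 63 with a minimum of 50 in Upd, 77 with a minimum of 10, 72 with CPM after TMM, 96 and 76 with 0.5 and 5 added in place of 1, and 75 to 92 when a library of Upd or WT was left out. Many members had few counts outside Upd, which limits the precision there: 25 had 0 and 20 had 1 to 3 counts over Chinmo, and 11 had 0 and 9 had 1 to 3 under Chinmo_RNAi.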
